A study of Mus musculus with 10 samples.

Results

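The genes described here are 9 interferon-inducible GTPases of the mouse, Gbp2, Gbp3, Gbp7, Irgm1, Irgm2, Igtp, Iigp1, Ifi47 and Tgtp1, together with the transcription factor gene Irf1. The 10 were taken by symbol from 32903 genes to which the RefSeq transcripts of the deposited table could be assigned, and all 10 were among the 14597 genes with enough counts to test. RNA was sequenced from preadipocytes, the precursors of fat cells, of inguinal subcutaneous fat (labelled iSAT), from male mice of the genotype WT C57 BL6. There were 10 libraries, 5 of them from vehicle cells that received DMSO alone. The other 5 were from cells exposed to BPS (bisphenol S, a chemical relative of bisphenol A) at 2.5 µM in the same solvent. The labels used here do not give the time of exposure or the age of the mice, and nothing says that the replicates came from separate animals or cultures, so p-values measure the spread between these libraries only, which may be technical. Libraries held 37920689 to 42717227 estimated counts.

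Interferon-inducible GTPases are a main arm of the defence of mouse cells against microbes that live inside vacuoles. Interferon gamma binds its receptor, the kinases JAK1 and JAK2 become active, and GAS elements in the promoters of genes such as Irf1 carry the signal to transcription. The IRF1 protein, and the complex with STAT2 and IRF9 that type I interferon activates, bind ISRE elements. The guanylate-binding proteins (GBPs) and the smaller immunity-related GTPases (IRGs) then collect on the vacuole membrane. Among the IRGs, those of the IRGM type carry an altered nucleotide-binding motif and hold the effector IRGs inactive on the cell's own membranes. Fibroblast-like cells, to which preadipocytes belong, use this system as macrophages do.

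Under BPS, 3 of the 10 genes fell, 0 rose and 7 did not pass the test, and all 10 had a log2 fold change (BPS over DMSO) below 0. Irgm2 fell by 19.8%, Gbp3 fell by 20.4% and Irf1 fell by 8.19%. Tests were quasi-likelihood tests in edgeR, their p-values adjusted by Benjamini-Hochberg over all genes tested, and a gene is called where the adjusted p is under 0.05. Over all 14597 genes, 1.82% were called as lower and 3.06% as higher under BPS, and 49.8% had a log2 fold change below 0. The median log2 fold change of the 10 genes was -0.21, and that of all tested genes was 0.00039. With any 1 library left out, 1 or 2 of the 10 were called; only Irgm2 was called each time. In 4 of the 10 genes (Gbp3, Gbp7, Irgm2 and Iigp1) all 5 BPS values lay below all 5 DMSO values, as they did in 2.71% of all tested genes. The members were chosen with earlier results on these libraries known, so neither count is independent evidence of a direction. The library codes in the labels run through the DMSO libraries before the BPS libraries, so a batch that followed that order and the treatment cannot be told apart.

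Irf1 encodes a transcription factor that activates many of the GTPase genes. Its level, in CPM (read counts scaled to a common library size), was 43.9, 44.0, 42.6, 44.9 and 44.4 in DMSO replicates 1 to 5, and 42.8, 38.9, 38.9, 40.7 and 40.5 in BPS replicates 1 to 5. The 5 DMSO libraries lay close together, and BPS replicate 1 lay just above the lowest of them, so the groups overlapped at that point. The log2 fold change was -0.12 (SE 0.03, edgeR adjusted p = 0.0353). The spread of Irf1 was the smallest among the 10 genes, with a coefficient of variation of 1.94% in DMSO and 3.97% in BPS. The call depended on most libraries: it held without DMSO replicate 3 or BPS replicate 1, and each of the other 8 fits with 1 library left out (without DMSO replicates 1, 2, 4 and 5 or BPS replicates 2, 3, 4 and 5) gave an adjusted p above the threshold, up to 0.0843 by edgeR. A single RefSeq transcript held 89.4% of the counts of Irf1, and on its own it had a log2 fold change of -0.09 (SE 0.05).

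The promoter of Irf1 is shown because it holds a match to the GAS core, an element known for the response of this gene to interferon gamma. The window runs from 250 bases before to 50 bases after the annotated start (RefSeq, GRCm38.p6, chr11:53769764-53770063, plus strand), in lower case with the match to the GAS core TTCNNNGAA in capitals, which starts 90 bases before the start site. It held no match to the ISRE core GAAANNGAA on either strand.
Irf1 promoter: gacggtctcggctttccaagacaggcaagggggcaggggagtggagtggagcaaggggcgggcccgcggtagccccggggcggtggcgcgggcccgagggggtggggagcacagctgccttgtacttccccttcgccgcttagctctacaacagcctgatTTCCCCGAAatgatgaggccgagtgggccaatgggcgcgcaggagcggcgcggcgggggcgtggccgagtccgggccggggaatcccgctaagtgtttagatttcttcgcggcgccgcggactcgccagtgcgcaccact

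The guanylate-binding proteins are large GTPases that coat vacuoles and bacteria. Gbp3 stood at 19.4, 21.7, 22.4, 24.3 and 19.7 CPM in DMSO replicates 1 to 5 and at 16.6, 15.4, 15.4, 19.1 and 19.2 CPM in BPS replicates 1 to 5. The groups did not overlap, but the gap between the highest BPS library and the lowest DMSO library was narrow. The log2 fold change was -0.33 (SE 0.08, edgeR adjusted p = 0.0404). That call was lost without any of DMSO replicates 2, 3 and 4 or BPS replicates 1, 2 and 3, with adjusted p from 0.0716 to 0.0926 by edgeR. The 2 transcripts that held nearly all of the counts of Gbp3 both had values below 0, with log2 fold changes of -0.42 (SE 0.11) and -0.20 (SE 0.13).

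Gbp7, which has been linked to the NADPH oxidase of phagocytes, stood at 25.4, 25.5, 29.9, 29.0 and 25.8 CPM in DMSO and at 23.1, 18.7, 20.5, 24.7 and 25.3 CPM in BPS. Its groups did not overlap either, and its log2 fold change was -0.27 (SE 0.08), but it was not called (edgeR adjusted p = 0.0854). In the DESeq2 Wald test, run as an alternative, it was called (adjusted p = 0.0343). Gbp2, a prenylated member of the family, stood at 27.9, 25.9, 27.2, 29.8 and 25.9 CPM in DMSO and at 24.8, 22.8, 25.1, 29.0 and 27.0 CPM in BPS. BPS replicates 1, 2 and 3 lay below every DMSO library, while BPS replicates 4 and 5 stood among the DMSO values. Gbp2 had a log2 fold change of -0.09 (SE 0.06, edgeR adjusted p = 0.501). An interval of 2 SE on either side ran from -0.21 to 0.03 (0.035), so a small fall of Gbp2 is within the error.

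In the reference used for names, Gbp2, Gbp3 and Gbp7 lie next to each other, with Gbp5 and Gbp2b, in a single cluster. The Gbp3 promoter is printed as that of the called GBP gene. In this window (RefSeq, GRCm38.p6, chr3:142559794-142560093, plus strand) the capitals mark 2 overlapping matches to the ISRE core on the reverse strand, starting 44 and 38 bases before the start site.
Gbp3 promoter: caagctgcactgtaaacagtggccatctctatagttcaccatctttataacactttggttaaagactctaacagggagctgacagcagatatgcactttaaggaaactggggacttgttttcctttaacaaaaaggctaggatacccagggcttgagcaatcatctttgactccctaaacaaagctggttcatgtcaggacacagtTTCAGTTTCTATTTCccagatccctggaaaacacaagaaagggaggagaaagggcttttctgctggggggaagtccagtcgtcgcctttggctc

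The 3 IRGM-type genes encode the regulators that keep the effector IRGs inactive on the cell's own membranes. Irgm2 stood at 55.6, 56.2, 65.0, 63.9 and 57.7 CPM in DMSO replicates 1 to 5 and at 49.4, 41.6, 45.6, 51.5 and 51.3 CPM in BPS replicates 1 to 5. Every BPS library lay below every DMSO library. The log2 fold change was -0.32 (SE 0.06, edgeR adjusted p = 0.0162). Irgm2 was called in each of the 10 fits with 1 library left out, with adjusted p from 0.0198 to 0.0435 by edgeR. All of its counts came from 1 RefSeq transcript.

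Igtp, also named Irgm3 and known from the endoplasmic reticulum and lipid droplets, stood at 24.8, 26.8, 32.6, 29.4 and 25.1 CPM in DMSO and at 23.9, 18.7, 19.4, 25.7 and 22.6 CPM in BPS. BPS replicate 4 lay above the 2 lowest DMSO libraries, and the other BPS libraries lay below all of them. Its log2 fold change of -0.33 (SE 0.10) was close to that of Irgm2, with a larger error, and it was not called (edgeR adjusted p = 0.078). The DESeq2 Wald test called it (adjusted p = 0.023). Irgm1, known from the Golgi, mitochondria and lysosomes and from the control of autophagy, stood at 63.4, 55.2, 67.7, 63.8 and 60.0 CPM in DMSO and at 62.5, 46.8, 49.0, 63.5 and 56.7 CPM in BPS. BPS replicates 2 and 3 lay below every DMSO library, while the other 3 BPS libraries stood among the DMSO values. The log2 fold change was -0.15 (SE 0.09, edgeR adjusted p = 0.369), with an interval of 2 SE on either side from -0.33 to 0.02 (0.016).

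The promoters of Irgm2, Igtp and Tgtp1, and of the near-copy Tgtp2, held the same arrangement, a GAS core followed after 2 bases by an ISRE core on the same strand. These 20 bases are printed because they are what the windows share, with both cores in capitals and the 2 bases between them in lower case. The arrangement was found in 8 of 32851 promoter windows of the RefSeq table (0.0244%), searched on both strands. These GTPase genes were 4 of the 8. The pattern was read from their own windows, so their presence was fixed in advance and is no independent evidence. Of the other 4, Adar was tested and called (log2 fold change -0.17, edgeR adjusted p = 0.0236), Gm12185, itself listed as an IRG gene (Irgb2b1) in the reference, was tested and not called (edgeR adjusted p = 0.832), and neither of the remaining pair was tested. Adar and Gm12185 were picked out after their values were seen. A match is a description of letters and not of a bound site. The stretch starts 75 bases before the start site in Irgm2, 45 in Igtp, 88 in Tgtp1 and 81 in Tgtp2.
Irgm2: TTCCAGGAActGAAACTGAA
Igtp: TTCTAGGAActGAAACTGAA
Tgtp1: TTCCAGGAAtcGAAACTGAA
Tgtp2: TTCCAGGAAtcGAAACCGAA

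The windows lie at chr11:58214727-58215026 (plus strand) for Irgm2, chr11:58199306-58199605 (plus strand) for Igtp, chr11:48992197-48992496 (minus strand) for Tgtp1 and chr11:49064163-49064462 (minus strand) for Tgtp2, in GRCm38.p6. Igtp and Irgm2 are neighbours in the reference, and their windows also share an identical run of 61 bases. The whole window of Irgm2, the member with the smallest p, shows the arrangement in its place.
Irgm2 promoter: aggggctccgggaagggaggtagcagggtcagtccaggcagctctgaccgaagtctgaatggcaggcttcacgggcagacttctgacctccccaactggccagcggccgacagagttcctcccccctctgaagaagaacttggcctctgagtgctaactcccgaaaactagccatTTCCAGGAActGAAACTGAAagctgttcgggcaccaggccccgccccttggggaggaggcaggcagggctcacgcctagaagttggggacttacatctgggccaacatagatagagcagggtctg

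Of the effector IRGs, which load onto vacuole membranes and break them, Iigp1 (also named Irga6) had the lowest log2 fold change of the 10 genes. It stood at 47.8, 44.1, 58.8, 53.8 and 44.9 CPM in DMSO and at 43.5, 31.7, 31.4, 43.7 and 41.1 CPM in BPS. The groups did not overlap, but BPS replicates 1 and 4 lay within 1 CPM of the lowest DMSO library. The log2 fold change was -0.38 (SE 0.11) and was not called (edgeR adjusted p = 0.0772). It was called in the DESeq2 Wald test (adjusted p = 0.0153). The RefSeq promoter table gave no window for Iigp1.

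Ifi47, also named Irgd, stood at 26.3, 26.1, 29.3, 27.9 and 24.6 CPM in DMSO and at 27.0, 23.3, 23.1, 27.2 and 28.2 CPM in BPS. BPS replicates 2 and 3 lay below every DMSO library and DMSO replicate 3 above every BPS library, while the others overlapped. Ifi47 had a log2 fold change of -0.06 (SE 0.06, edgeR adjusted p = 0.703). An interval of 2 SE on either side ran from -0.19 to 0.07. Its promoter window held neither core.

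Tgtp1, also named Irgb6, stood at 1.99, 1.995, 2.15, 1.26 and 1.03 CPM in DMSO and at 1.76, 1.18, 2.004, 1.83 and 1.05 CPM in BPS, on 37 to 85 counts per library. The 2 groups covered the same range, and the log2 fold change was -0.11 (SE 0.24, edgeR adjusted p = 0.864). Its value is uncertain, because its transcript is 99.75% identical to that of Tgtp2 over 99.6% of its length and the program divides shared reads between them. Tgtp1 received 4.38% to 9.62% of the summed level of the pair. Summed, the pair had a mean of 24.6 ± 1.22 CPM in DMSO, against 23.0 ± 2.74 under BPS (SD over 5 libraries), with a log2 fold change of -0.10 (SE 0.07, edgeR adjusted p = 0.537). The closest matches of the other members were less alike. Each is given by its longest single aligned stretch, so further stretches are not counted. Irgm2 was 89.85% identical to Igtp over 15.7% of its length, and Iigp1 86.41% to Gm4951 over 43.7%. Gbp2 was 83.79% identical to Gbp2b over 67.9%, and Gbp3 81.49% to Gbp7 over 60.6%.

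**Figure D1:**
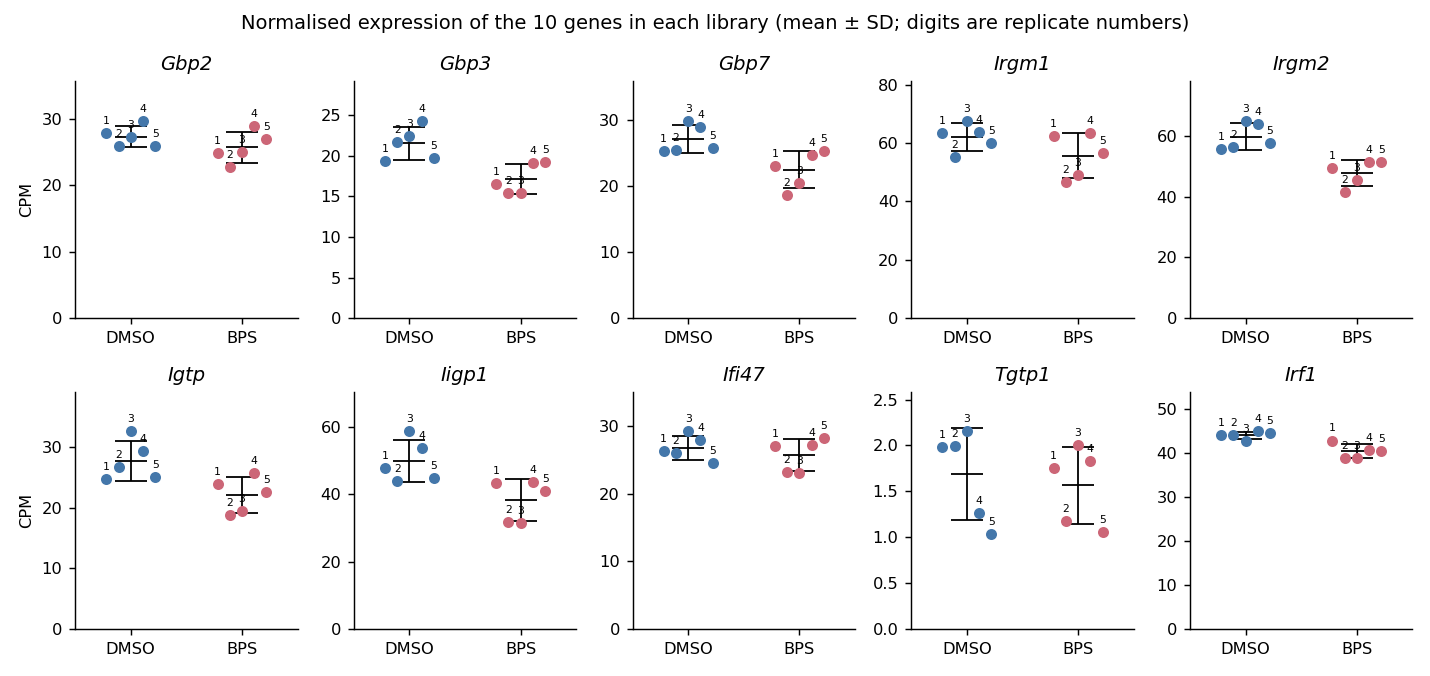
CPM of the 10 genes (vertical axes, from 0) in the 5 DMSO and the 5 BPS libraries, with the mean and SD in black and replicate numbers beside the points. In Gbp3, Gbp7, Irgm2 and Iigp1 the BPS points lie below all DMSO points, and in the other 6 genes the groups overlap.

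Promoter windows were found for 9 of the 10 genes. Of these, 7 held the ISRE core GAAANNGAA (all but Ifi47 and Irf1), and 5 held the GAS core TTCNNNGAA (Gbp7, Irgm2, Igtp, Tgtp1 and Irf1), each searched on both strands. Over all 27025 genes of the table, 9.76% held the first and 9.55% the second in any window. The 2 cores shared no base in any of these windows. Of the 3 called genes, Irgm2 held both cores, Gbp3 the ISRE core and Irf1 the GAS core. Of the 6 uncalled genes with a window, Gbp7, Igtp and Tgtp1 held both, Gbp2 and Irgm1 the ISRE core and Ifi47 neither. Irf1 and Gbp3 each have a further annotated start, whose window held neither core. Whether the cores go with the size of the change was not tested.

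**Figure D2:**
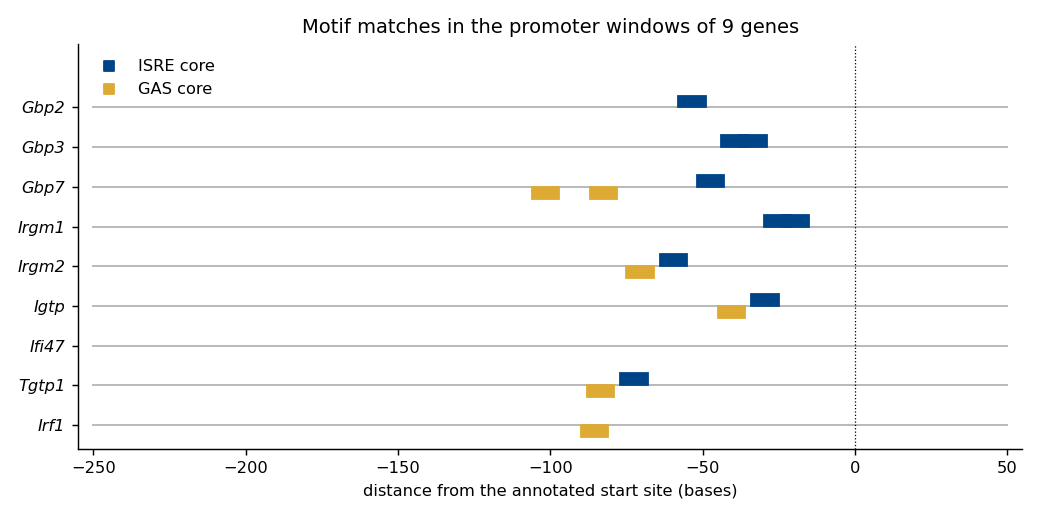
Positions of ISRE core (blue) and GAS core (yellow) matches in the promoter windows of 9 genes, from 250 bases before to 50 bases after the annotated start site (dotted line); the horizontal axis is distance in bases. In Irgm2, Igtp and Tgtp1 a GAS core stands just before an ISRE core, while Ifi47 has neither.

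Within each group, most of the 10 genes shared an extreme library at the top or the bottom only. Among the DMSO libraries, replicate 3 was highest in 7 genes and replicate 4 in 3. The lowest was divided among replicates 1 (4 genes), 2 (3), 5 (2) and 3 (1). Among the BPS libraries, replicate 2 was lowest in 7 genes, replicate 3 in 2 and replicate 5 in 1. The highest was divided among replicates 4 (5 genes), 5 (3), 1 (1) and 3 (1). Ranks over all 10 libraries also hold the difference between the groups. DMSO replicate 3 had the highest value of all 10 libraries in 7 of the 10 genes and DMSO replicate 4 in the other 3. BPS replicate 2 was the lowest of all 10 libraries in 7 genes and was among the lowest 3 in all 10, and BPS replicate 3 was among the lowest 3 in 9. BPS replicate 4 was among the lowest 3 in 0 genes. Coefficients of variation of the GTPases other than Tgtp1 ran from 5.92% to 12.6% in DMSO and from 8.85% to 16.2% in BPS, above those of Irf1.

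This shared spread was described by taking each gene's log2(CPM + 0.5) less its group mean, over the 10 libraries, and correlating it with the mean standardised profile of the other 9 genes. Pearson's r was 0.95 for Iigp1, 0.94 for Gbp7, 0.93 for Igtp, 0.92 for Irgm2, 0.92 for Ifi47, 0.89 for Irgm1, 0.77 for Gbp3 and 0.74 for Gbp2. It was 0.42 for Irf1 and 0.08 for Tgtp1. Ifi47, which was not called, thus followed the profile as closely as Irgm2, which was. These values share their libraries and depth and are descriptions only.

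Among 12452 other genes with a mean of at least 1 CPM, the 5 whose deviations were most like the mean profile of the 10 genes were Parp14 (r = 0.97), Rtp4 (0.96), Ddx58 (0.95), Samd9l (0.95) and Gyg (0.95), over the same 10 libraries. They were picked as the highest of all these genes. The first 4 were lower under BPS without overlap, with log2 fold changes of -0.34 (SE 0.07) for Parp14, -0.43 (SE 0.10) for Rtp4, -0.23 (SE 0.05) for Ddx58 and -0.26 (SE 0.05) for Samd9l. Their adjusted p were 0.0185, 0.0248, 0.0139 and 0.0183 by edgeR. Gyg had a log2 fold change of 0.06 (SE 0.03) and was not called (edgeR adjusted p = 0.271).

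**Figure D3:**
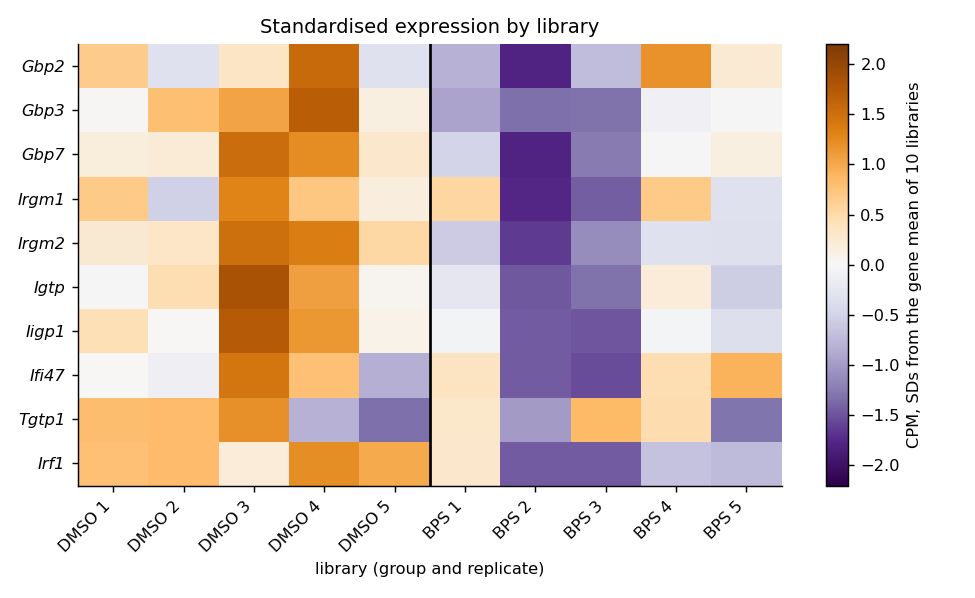
CPM of each gene in each library, as SDs from that gene's mean over the 10 libraries (orange above, purple below; the black line separates DMSO from BPS). BPS replicates 2 and 3 are the lowest columns for most of the GTPases, DMSO replicates 3 and 4 the highest, and Tgtp1 follows another order.

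Levels can be compared between genes only per length. For 8 of the 10 genes a RefSeq transcript with over 80% of the gene's counts had a length in GENCODE M21, and CPM per kilobase was taken from it. In DMSO the order was Irgm1 (27.5 ± 2.07 CPM per kilobase), Irf1 (20.6 ± 0.399), Irgm2 (17.3 ± 1.28), Ifi47 (15.9 ± 1.07), Igtp (13.7 ± 1.62), Gbp2 (10.9 ± 0.643), Gbp7 (4.83 ± 0.385) and Tgtp1 (0.597 ± 0.178; SD, n = 5 each). The ranges of Irgm2 (16.1 to 18.8) and Ifi47 (14.5 to 17.3) overlapped, as did those of Ifi47 and Igtp (12.3 to 16.1). The other neighbours in this order did not overlap. In BPS the means were 24.7 for Irgm1, 18.9 for Irf1, 13.8 for Irgm2, 15.3 for Ifi47, 10.9 for Igtp, 10.2 for Gbp2, 4.003 for Gbp7 and 0.554 for Tgtp1 CPM per kilobase, so Ifi47 and Irgm2 stood in the opposite order there, again with overlapping ranges.

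Of 21 other genes for interferon-inducible and related GTPases, 18 were tested. Of these, 2 fell, 1 rose and 15 did not pass, with a median log2 fold change of -0.15 and 13 of 18 values below 0. Over all tested genes, 1.82% were called lower, 3.06% higher, and 49.8% had values below 0. Gbp5, a GBP known for its part in inflammasome assembly, fell from 2.40 ± 0.191 CPM in DMSO to 1.73 ± 0.135 CPM (SD over 5 libraries). Its log2 fold change was -0.48, with an SE of 0.09 (edgeR adjusted p = 0.014). All 5 BPS libraries lay below the DMSO libraries, and the call held in each fit with 1 library left out. Gm4951, the closest relative of Iigp1 by transcript sequence (86.41% identity over 1280 bases), fell from 14.5 ± 1.24 to 10.6 ± 1.83 CPM (log2 fold change -0.45, SE 0.11, edgeR adjusted p = 0.0346). The call on Gm4951 was lost without any of DMSO replicates 1, 2, 3 and 4 or BPS replicates 2 and 3, with adjusted p up to 0.0775.

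The gene that rose, 9930111J21Rik1, lies close to Tgtp1 in the reference. It went from 14.3 ± 1.71 to 18.6 ± 1.47 CPM without overlap between the groups, and its log2 fold change was 0.38 (SE 0.08, edgeR adjusted p = 0.0237). Its transcript is 98.97% identical to that of 9930111J21Rik2 over 3221 bases, and that of Gm5431 is 95.75% identical to it over 2961 bases. The division of reads among these genes is therefore uncertain. 9930111J21Rik2 itself had a log2 fold change of 0.12 (SE 0.17). Gm5431 had a log2 fold change of 0.31 (SE 0.15) and was not called (edgeR adjusted p = 0.284). The call on 9930111J21Rik1 was lost without DMSO replicate 2, BPS replicate 2 or BPS replicate 4, with adjusted p up to 0.0623.

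**Figure D4:**
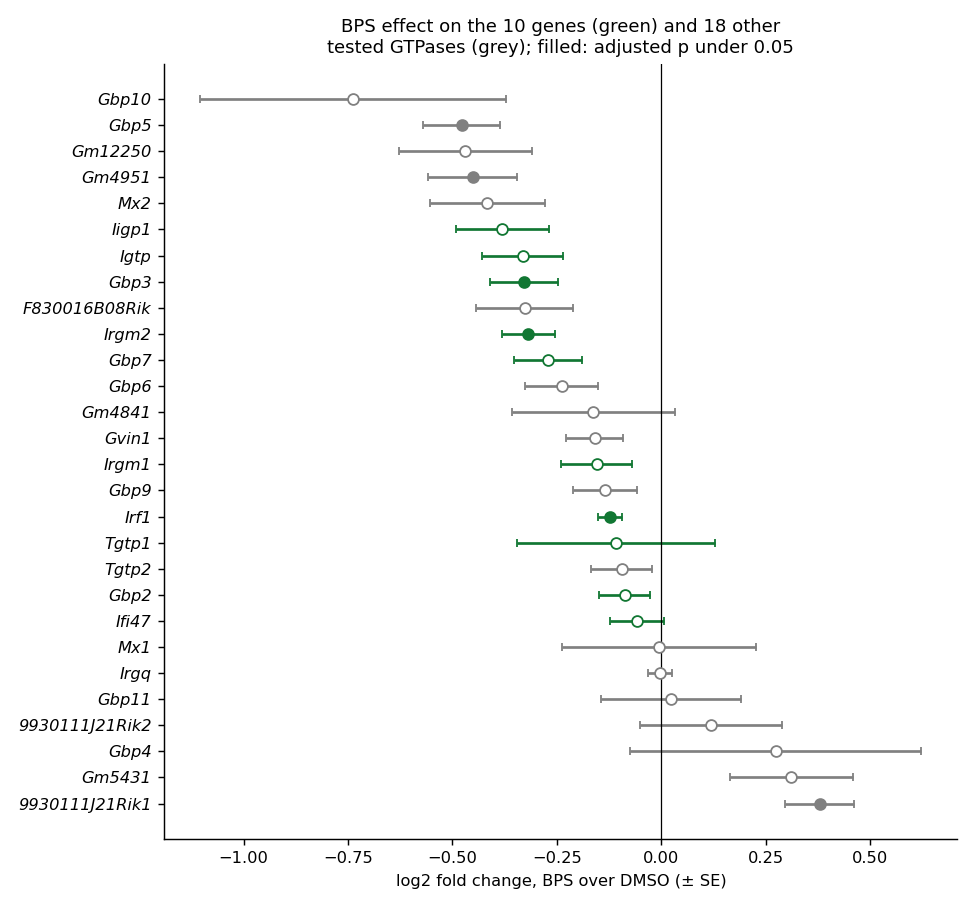
Log2 fold change (BPS over DMSO, horizontal axis) with its SE for the 10 genes in green and 18 other tested GTPase genes in grey; filled points have an adjusted p under 0.05. Irgm2, Gbp3 and Irf1 are the filled green points, all left of 0, and 9930111J21Rik1 is the filled point on the right.

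Upstream of these genes, the ligands were all but absent from the libraries. Of 10 interferon genes listed (Ifng, Ifnb1, Ifna1, Ifna2, Ifna4, Ifna5, Ifnk, Ifne, Ifnl2 and Ifnl3), 8 had 0 counts in every library, and the other two summed to 2 counts over all 10 libraries. All were at or under the floor of 3 counts per library, so no difference between the groups could be seen at this depth. The receptors were expressed, and 0 of the 5 tested receptor genes were called by edgeR (also 0 by the DESeq2 Wald test, and 0 at an unadjusted p under 0.05). Ifnar1 stood at 130.3 ± 2.26 and 127.5 ± 1.84 CPM in DMSO and BPS, Ifngr2 at 128.1 ± 4.25 and 131.0 ± 6.23 CPM, and Ifngr1 at 105.3 ± 2.65 and 102.0 ± 2.90 CPM (SD, n = 5 each). The log2 fold changes of these 3 lay between -0.05 and 0.03.

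Among 6 JAK and STAT genes, 3 fell and 0 rose, with a median log2 fold change of -0.18. The shares over all tested genes were 1.82% lower and 3.06% higher. Stat2, the STAT of type I interferon signalling, stood at 119, 117, 130, 129 and 111 CPM in DMSO replicates 1 to 5 and at 91.8, 85.0, 89.4, 105 and 108 CPM in BPS replicates 1 to 5. Its groups did not overlap, and its log2 fold change was -0.34 (SE 0.07, edgeR adjusted p = 0.0154), close to that of Irgm2. The kinase gene Jak1 fell from 248.5 ± 6.50 to 217.2 ± 14.2 CPM (log2 fold change -0.19, SE 0.04, edgeR adjusted p = 0.016). Jak2 fell from 140.03 ± 2.80 to 131.8 ± 1.07 CPM (log2 fold change -0.09, SE 0.02, edgeR adjusted p = 0.0139). These 3 calls held in each fit with 1 library left out.

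None of the 6 other IRF genes tested was called by edgeR; 2 of them had an unadjusted p under 0.05, and the DESeq2 Wald test called 1, Irf7. The 3 with the highest mean CPM were Irf9 (72.9 ± 1.87 and 65.8 ± 5.41 CPM in DMSO and BPS), Irf7 (60.2 ± 5.84 and 51.3 ± 4.22) and Irf3 (31.9 ± 1.52 and 32.5 ± 1.21), with adjusted p of 0.111, 0.089 and 0.747 by edgeR. Irf3 had a value above 0, with a log2 fold change of 0.03 (SE 0.04). Of 11 inhibitors and feedback regulators, 1 fell and 10 did not pass. It was Trim21, a ubiquitin ligase and antibody receptor of the cytosol, at 16.0 ± 1.15 and 13.5 ± 0.935 CPM (log2 fold change -0.25, SE 0.06, edgeR adjusted p = 0.0406). Without DMSO replicates 1, 3, 4 or 5, or BPS replicates 2, 3 or 4, its adjusted p rose above the threshold, up to 0.0931.

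Of 18 interferon gamma targets that are not GTPases, 17 were tested, with 1 lower, 0 higher and 16 not called and a median log2 fold change of -0.08. Tap1, a subunit of the peptide transporter of MHC class I presentation, went from 53.7 ± 2.43 to 47.7 ± 2.93 CPM without overlap (log2 fold change -0.17, SE 0.04, edgeR adjusted p = 0.0458). That call held only without BPS replicate 5 among the 10 fits with 1 library left out, which gave adjusted p from 0.0395 to 0.0979. LC3 conjugation is the autophagy machinery that IRG proteins need to be loaded correctly. The list named for it held 13 genes, among them Becn1 and Sqstm1, which act elsewhere in autophagy. This list had a median log2 fold change of 0.01, with 1 higher and 0 lower. Map1lc3a rose from 56.1 ± 1.75 to 60.8 ± 1.24 CPM (log2 fold change 0.12, SE 0.03, edgeR adjusted p = 0.0235), a call lost without DMSO replicate 4, BPS replicate 2 or BPS replicate 3 (adjusted p up to 0.0616). Over the 7 lists with tested genes, 9 of 76 tested genes were called, 7 lower and 2 higher. Over all 14597 tested genes, 1.82% were called lower and 3.06% higher, and each list count above stands beside these shares. The lists were chosen with earlier results known, and a single call in a list is not read as a result about that list.

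**Figure D5:**
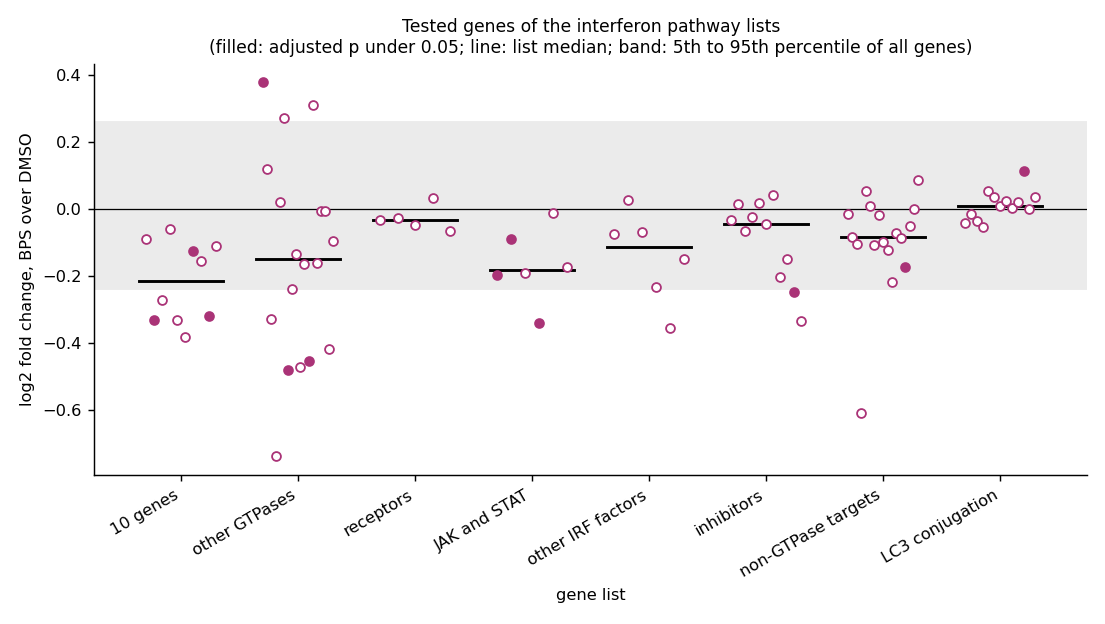
Log2 fold change (BPS over DMSO, vertical axis) of each tested gene in the 10 described here and in 7 other lists, with filled points for an adjusted p under 0.05, a black line at each list's median and a grey band from the 5th to the 95th percentile of all tested genes. The medians of the 10 genes, the JAK and STAT genes and the other GTPases lie lowest. The genes of the LC3 conjugation list sit around 0.

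The labelled cell type was checked against its markers. The 10 preadipocyte markers, among them Pdgfra, Pdgfrb, Thy1 and Col1a1, were all detected and summed to 24350 to 26002 CPM in DMSO and 23574 to 26449 CPM in BPS, most of it Col1a1. Among them Cd34 (45.2 ± 1.56 to 54.8 ± 1.88 CPM) and Thy1 (848.1 ± 7.33 to 968.1 ± 40.1 CPM) rose under BPS, with adjusted p of 0.000428 and 0.00129 by edgeR. The other 8 markers were not called, 4 of the 10 were below 0, and the median log2 fold change was 0.0035. The shares called over all tested genes were 3.06% higher and 1.82% lower. Pdgfra, at 903.8 ± 14.3 and 863.3 ± 22.8 CPM (log2 fold change -0.07, SE 0.02, edgeR adjusted p = 0.0777), was called by the DESeq2 Wald test along with Cd34 and Thy1. The part of these markers in the GTPase results was not tested. Macrophages and lymphocytes also express the GTPases strongly, and their markers were low. The 10 macrophage markers summed to 13.2 to 20.7 CPM in DMSO and 14.3 to 23.1 CPM in BPS. Only 1 of them, Csf1r, had 0 counts in every library. Lyz2 had a mean of 8.67 CPM over the 10 libraries, Cd68 2.86 and C1qa 1.86. The preadipocyte markers Dpp4 and Pi16 were as low, with means of 2.29 and 2.11 CPM. Of 8 macrophage markers tested, 0 were called by edgeR or DESeq2 and 0 had an unadjusted p under 0.05. The 10 T and NK cell markers summed to 0.707 to 1.18 CPM and 1.002 to 1.52 CPM, with Cd3e, Ncr1 and Gzmb at 0 counts throughout. The 10 endothelial markers summed to 19.2 to 25.1 CPM and 18.5 to 24.5 CPM. For all 3 of these cell types the ranges of the groups overlapped. In bulk RNA, fewer cells of a type and less RNA per cell cannot be told apart.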

How the data were processed

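The values are estimated counts per RefSeq transcript for 5 DMSO and 5 BPS libraries, made with kallisto 0.42.4 per the submitters' processing notes and deposited by the authors as 1 table. The index, genome build and strand setting are not given in the sources used here; the kit is directional, per the labels' protocols. Transcripts were matched to RefSeq genes (GRCm38.p6) by accession without version: 86722 of 107384 matched, with 93.1% of the counts. Estimated counts were summed per gene and rounded. Genes were filtered with filterByExpr, scaled by TMM and tested with edgeR 4.0.16 (R 4.3.3) in a quasi-likelihood fit of treatment alone, with Benjamini-Hochberg adjustment over 14597 genes; the code was tested on simulated data. CPM are counts assigned to a gene, divided by the TMM-scaled library size. Totals ran from 37920689 to 42717227. Alternatives used DESeq2 1.42.0, limma 3.58.1, other scalings, filters and matching, a replicate block, and leaving out each library.

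The 10 genes and the gene lists were chosen with earlier results of these data known. All 10 genes are named, and of each other list the called genes or, with none called, up to 3 with the highest mean CPM. Promoter windows come from RefSeq and transcript identities from BLASTN 2.17.0 on GENCODE M21 transcripts. The values of 1 gene of the JAK and STAT list, which enters the counts and the median of that list, are not reported here.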

Additional observations from a re-analysis of the deposited data

Results flagged for a closer look

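In DMSO replicate 4, 9930111J21Rik1 stood at 11.35 CPM, apart from the other 4 DMSO libraries at 14.71 to 15.81 CPM. The gap was 0.754 of the group's range, above Dixon's 95% critical value of 0.71 for 5 samples. Of 38 groups of 5 values checked, 1 had a library that stood apart in this way, and chance gives about 1 in 20.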

How the results depend on the processing

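The alternatives refit the same libraries, so they are not independent of each other. With transcripts not summed, each gene was read from its transcript with the most counts. A lesser transcript lay above 0 in Ifi47 (log2 fold change 1.27, SE 1.77) and in Iigp1 (0.63, SE 0.83). Over all alternatives run, 208 of 209 values of the 10 genes kept their sign. The exception was Tgtp1 without BPS replicate 5, with a log2 fold change of 0.0041 (its values with 1 library left out ran from -0.24 to 0.0041). The count of called genes, 712 of 14597 tested, was 374 with the replicate block and 328 of 11761 tested with exact version matching. It was 449 to 774 with 1 library left out. With transcripts not summed the unit was the transcript, and 126 of 37588 transcripts tested were called. Of the 10 genes, 3 were called; 6 were with the DESeq2 Wald test, 1 with the block, 1 with exact version matching (9 tested, Gbp3 not among them) and 0 of 10 by edgeR with transcripts not summed, where 5 had a transcript with an unadjusted p under 0.05. Leaving out 1 library gave 1 to 2. Of the other pathway genes, 9 were called, against 5 with the block, 3 with exact version matching, 0 by edgeR with transcripts not summed (18 with an unadjusted p under 0.05) and 5 to 11 with 1 library left out. With exact version matching, Jak2 and Stat2 were not tested, and 72.12% of the counts were assigned to a gene, against 93.1%. The cause of these shifts was not tested. The block kept the call on Irgm2 and gave an adjusted p of 0.0598 for Gbp3 and 0.0632 for Irf1 by edgeR. Over all tested genes, same-numbered deviations correlated at -0.04 (-0.0433) to 0.08 (0.0761), and 2 of 5 DMSO libraries correlated best with their own number. These correlations cannot settle whether the replicate numbers pair the libraries. With the block, the SE went from 0.061 to 0.042 for Gbp2 and from 0.085 to 0.065 for Irgm1. It went from 0.065 to 0.071 for Ifi47. With library size alone, 45.9% of the calls over all genes were higher under BPS, against 62.8%. Irgm2 was called in 20 of 21 alternatives, Gbp3 in 12 of 20 and Irf1 in 9 of 21. Depth limits the interferon ligands. Tgtp1, at 37 to 85 counts per library, is limited by the reads it shares with Tgtp2, of which pair it received 4.38% to 9.62%.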
